A study of Mus musculus with 40 samples.

Results

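DNA repair factors recognise and remove damage from the genome, and the 45 described here were chosen by name. They are the genes with a single-symbol probe whose symbol starts with Ercc, Xrcc, Msh, Mlh, Pms, Fanc, Brca, Parp, Apex or Neil, is Xpa or Xpc, or starts with Rad and a digit, together with Ddb1, Ddb2, Lig3, Lig4, Ung, Mre11a, Atm, Chek1, Chek2 and Prkdc. Of 6970 genes named on the arrays they make up 45, measured by 55 of 15279 probes. Array design 1 held 30 of these probes for 27 genes, and array design 2 held 25 probes for 22 genes. Chek1, Chek2, Rad50 and Parp12 were on both designs. Mgmt, Ogg1, Nbn and Atr, which the choice also names, had no such probe.

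Mouse embryos in culture at 37 °C were exposed to 40 µM 4-hydroperoxycyclophosphamide, a pre-activated analogue of cyclophosphamide, continuously for 5 h, and their RNA was compared with that of untreated embryos in culture. The sources used here give no strain, embryonic age or number of embryos per sample. Each of the 40 arrays, 20 per design, carried total RNA of treated and of control embryos in its 2 channels, so the values are ratios and hold no levels. Each design had 5 replicates, and each replicate had 2 slides of opposite dye orientation with 2 readouts per slide.

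Cyclophosphamide yields a mustard that alkylates guanine and links the strands of DNA to each other. Alkylated bases are cut out by base excision or nucleotide excision repair, replication errors opposite damaged bases are sensed by mismatch repair, interstrand crosslinks are unhooked under the Fanconi anaemia pathway, and the resulting breaks are mended by recombination or end joining under the control of the kinases Atm, Atr, Chek1 and Chek2. Much of this response is known to run through protein modification rather than transcription.

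Values are log2 ratios of treated over control, centred on each array's median, with 1 value per replicate. The sources used here state neither the logarithm's base nor which channel was divided by which, so each fold assumes base 2, and the direction is the likely one. It rests on the channel order in the labels and on the p53 target Ccng1 (cyclin G1), whose 3 probes had log2 ratios of 2.90 ± 0.46, 2.41 ± 0.31 and 1.38 ± 0.40 (SD, n = 5). Single dye orientations did not settle it: between replicates, arrays with control embryos in channel 1 on array design 2 correlated at −0.35 to 0.88 over all probes. With both orientations averaged, replicates correlated at 0.30 to 0.73 on array design 1 and 0.35 to 0.69 on array design 2. Read the other way, the 9 rises below are falls and the 4 falls are rises. In whole embryos, fewer cells of a type and less RNA per cell cannot be told apart. Nothing in the labels says that replicates came from separate embryos, so p-values cover only the variation among these samples, possibly technical.

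Of the 55 repair probes, 13 passed limma's test against 0 (Benjamini-Hochberg adjusted over all probes of a design, threshold 0.05), 9 higher and 4 lower, for 12 genes. On array design 1, 3 of 30 passed, 2 higher and 1 lower, where 15.9% of all 7680 probes passed (10.2% higher, 5.77% lower). On array design 2, 10 of 25 passed, 7 higher and 3 lower, where 27.9% of all 7599 probes passed (19.7% higher, 8.19% lower). The median log2 ratio of the repair probes was 0.04 on array design 1 and −0.03 on array design 2, against −0.0024 and 0.02 for all probes. Apart from Msh6 and Ercc5, the log2 ratio of every repair probe lay between −0.25 and 0.25. Without centring, the median of all probes moved to −0.32 and −0.41, and every called repair probe was lower: 25 of 30 repair probes against 82.5% of all probes (0.781% higher) on array design 1, and 22 of 25 against 87.3% (0.276% higher) on array design 2. With arrays scaled to one spread, none of the repair probes passed on array design 1 (7.5% of all probes). On array design 2, 17.5% of all probes passed with that scaling, and 4 repair probes were higher (15.1%) and none lower (2.42%).

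The readout of replicate 4 on array design 1 that lacked 10.2% of its values was left out. With it kept, 0.651% of all probes and none of the 30 repair probes passed on that design by limma, while 8 had an unadjusted p under 0.05 (26.7%, against 33.0% of all probes). All 3 calls of array design 1 therefore depend on leaving out this readout, but their log2 ratios were no smaller with it: 0.26 for Chek1, 0.37 for Ddb1 and −0.25 for Rad51ap2 (limma adjusted p = 0.0725, 0.11 and 0.0516). Part of each replicate's ratios also followed the dye component of the spots across replicates, which took 34.4% to 74.0% of the variance of a replicate on array design 1 and 35.3% to 61.6% on array design 2. When this dye-profile trend was removed, the share of all probes with a call was 1.56% for array design 1 and 5.01% for array design 2. Of the 30 repair probes of array design 1 none was called, where 3 had an unadjusted p under 0.05 (against 14.2% of all probes), and 2 of 25 passed on array design 2, both higher (3.18% of all probes were higher, 1.83% lower). These were Msh6 and Ercc5. With the trend removed and the incomplete readout kept, 0.781% of all probes and no repair probe passed on array design 1.

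Msh6, which recognises base mismatches and small loops, had the largest log2 ratio of the repair probes. Its values in replicates 1 to 5 were 0.69, 0.47, 0.43, 0.51 and 0.47, all above 0. It rose 1.43-fold on array design 2 (log2 ratio 0.51 ± 0.10, SD, n = 5, 95% interval 0.40 to 0.63, limma adjusted p = 6.07e-07), rank 68 of 7599 by log2 ratio. With treated embryos in channel 1 its replicates lay between 0.08 and 0.61, and with control embryos in channel 1 between 0.32 and 1.01, so that it was above 0 on both dye orientations in each replicate. Neither Msh6 nor Ercc5 was called on the slides with treated embryos in channel 1 alone (limma adjusted p = 0.0639 and 0.588). With control embryos in channel 1 alone, Msh6 was called (0.67, limma adjusted p = 0.0492) and Ercc5 was not (0.61, limma adjusted p = 0.0521). With the trend removed Msh6 had 0.43 ± 0.05 (SD, n = 5, limma adjusted p = 0.000392), rank 16. Its call stood whichever replicate was left out, at log2 ratios of 0.47 to 0.53. Without centring it had 0.08 and was not called (limma adjusted p = 0.437).

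Ercc5, the Xpg nuclease that cuts on the 3′ side of a lesion in nucleotide excision repair, had the next largest log2 ratio. Its replicates had 0.35, 0.06, 0.59, 0.45 and 0.32. All were above 0, and replicate 2 was the lowest. It rose 1.28-fold on array design 2 (0.35 ± 0.19, SD, n = 5, 95% interval 0.22 to 0.48, limma adjusted p = 0.000213), rank 269. Its value came mostly from 1 dye orientation, with means of 0.09 for treated embryos in channel 1 and 0.61 for control embryos in channel 1. With the trend removed it had 0.39 ± 0.20 (SD, n = 5, limma adjusted p = 0.011), rank 24. The call stood whichever replicate was left out, at 0.30 to 0.43, while without centring the log2 ratio was −0.07.

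The promoters of Msh6 and Ercc5 are shown because these genes alone passed with and without the trend. Each line gives the 250 bases before the gene's start from RefSeq's GRCm38.p6 annotation, 5′ to 3′ on the gene's strand, at chr17:87974800-87975049 (+) for Msh6 and chr1:44147494-44147743 (+) for Ercc5. Capitals mark CCAAT and GGGCGG on either strand, overlapping copies included.
Msh6: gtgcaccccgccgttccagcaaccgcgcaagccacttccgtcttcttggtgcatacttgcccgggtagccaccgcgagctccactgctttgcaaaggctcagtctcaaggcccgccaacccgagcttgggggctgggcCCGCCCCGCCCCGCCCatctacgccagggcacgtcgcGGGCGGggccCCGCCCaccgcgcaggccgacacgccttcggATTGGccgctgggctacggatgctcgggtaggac
Ercc5: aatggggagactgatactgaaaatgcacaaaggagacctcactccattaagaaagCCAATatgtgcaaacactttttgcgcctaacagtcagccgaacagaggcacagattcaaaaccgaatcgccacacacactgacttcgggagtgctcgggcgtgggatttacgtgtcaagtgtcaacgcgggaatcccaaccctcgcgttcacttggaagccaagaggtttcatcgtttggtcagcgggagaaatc
Msh6 had 5 copies of GGGCGG, the GC box bound by Sp1 factors, and 1 of CCAAT, the box bound by NF-Y, while Ercc5 had 1 of CCAAT and none of GGGCGG. Promoters were listed for 36 of the 45 repair genes, 9 of them among the 12 with a call. GGGCGG was in 18 of the 36 and in 6 of the 9, against 32.9% of 27025 promoters of all gene types. CCAAT was in 15 of the 36 (41.7%) and 3 of the 9, against 34.5% of all. Of the sequences bound by E2F factors, TTTCCCGC was in 4 of the 36 (11.1%, against 0.929%), those of Brca2, Chek2, Fancg and Xrcc6. Only Xrcc6 among these had a call, so TTTCCCGC was in 1 of the 9. TTTCGCGC and TTTGGCGC were in none of the 36 (0.255% and 0.437% of all). A pair of p53 consensus half-sites without mismatch was in none of the 36 and in 0.0518% of all. These matches are letters in this window and do not show binding.

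**Figure D1:**
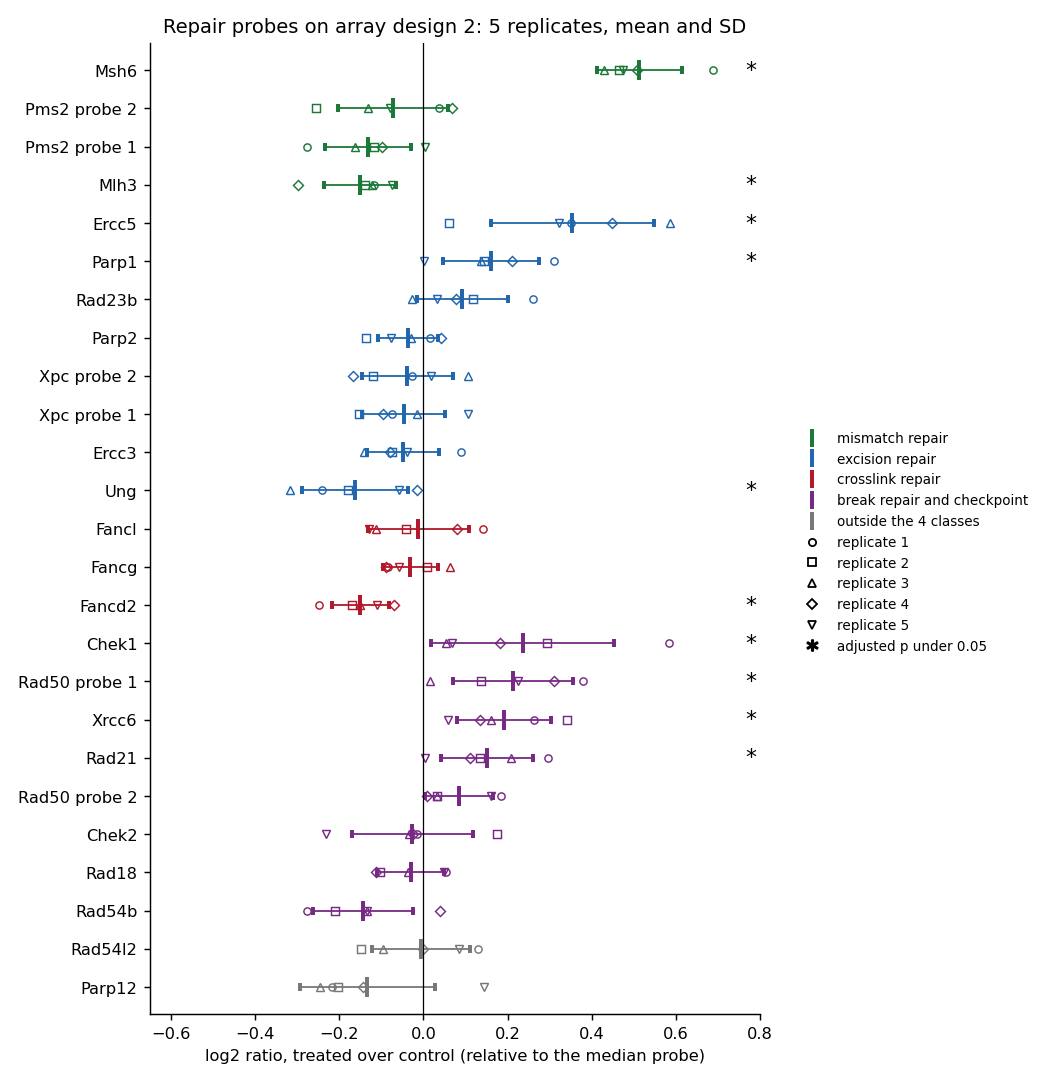
Log2 ratio (treated over control, horizontal axis) of the 25 repair probes of array design 2, grouped by repair class, with open symbols for the 5 replicates, a tick for the mean and a bar for the SD. An asterisk marks adjusted p under 0.05; Msh6 stands apart at 0.51 and Ercc5 at 0.35, and the other means lie between −0.16 and 0.24.

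No other mismatch repair probe rose. Mlh3, which works mainly in meiosis, had −0.12, −0.14, −0.12, −0.30 and −0.08 in replicates 1 to 5, all below 0. It fell by 0.15 on the log2 scale on array design 2 (−0.15 ± 0.09, SD over 5 replicates, limma adjusted p = 0.0407). The call ended without replicate 1, 2, 3 or 4 (log2 ratios of −0.16 to −0.11, limma adjusted p = 0.0764, 0.0785, 0.0877 and 0.219) and with the trend removed (−0.03). Pms2, the MutL subunit that nicks the strand to be replaced, had −0.13 ± 0.10 and −0.07 ± 0.13 (SD, n = 5) on its 2 probes, and neither passed (limma adjusted p = 0.0747 and 0.351). Msh4, a meiotic homologue on array design 1, had −0.04, −0.23, −0.18, −0.08 and −0.24, below 0 in all 5 replicates, without passing (−0.16 ± 0.09, limma adjusted p = 0.0776). Of the 5 mismatch repair probes of both designs, Msh6 was thus the only one with a mean above 0.

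Excision repair was covered by 11 probes of 9 genes on array design 1 and 8 probes of 7 genes on array design 2. Besides Ercc5, the calls were Ddb1 (higher, array design 1), Parp1 (higher) and Ung (lower). Ddb1, the adaptor that holds lesion sensors on the Cul4 ubiquitin ligase, had 0.21, 0.12, −0.07, 0.40 and 0.62 on its first probe. Replicate 3 was below 0 and replicates 4 and 5 were highest. This probe rose (0.25 ± 0.26, SD, n = 5, limma adjusted p = 0.0495) although its SD exceeded its mean. The second Ddb1 probe had 0.07, 0.22, −0.14, 0.48 and 0.39, with the same replicate lowest, without passing (0.20 ± 0.25, limma adjusted p = 0.0863). The first probe lost its call without replicate 1, 2, 4 or 5, at log2 ratios down to 0.16 (limma adjusted p = 0.0971, 0.0779, 0.172 and 0.14). With the trend removed that probe had 0.05.

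Parp1, the sensor that marks strand breaks with poly(ADP-ribose), had 0.31, 0.14, 0.14, 0.21 and 0.00039 on array design 2. It rose 1.12-fold (0.16 ± 0.11, SD, n = 5, limma adjusted p = 0.0355), with replicate 5 close to 0. Its dye orientations disagreed in sign (0.42 and −0.10). The call ended without replicate 1, 2, 3 or 4 (log2 ratios of 0.12 to 0.17, limma adjusted p = 0.146, 0.0712, 0.0678 and 0.117), and with the trend removed the value was 0.01. Parp2, which shares this task, had −0.04 ± 0.07 (SD, n = 5, limma adjusted p = 0.623).

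Ung, the glycosylase that removes uracil from DNA, had −0.24, −0.18, −0.32, −0.02 and −0.06 on array design 2. All 5 replicates were below 0, replicates 4 and 5 only slightly. It fell by 0.16 on the log2 scale (−0.16 ± 0.13, SD, n = 5, limma adjusted p = 0.0366). It was no longer called without replicate 1, 2 or 3 (log2 ratios of −0.16 to −0.12, limma adjusted p = 0.135, 0.0868 and 0.19), and with the trend removed Ung had −0.06.

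The damage sensors of nucleotide excision repair did not pass. Xpc, which finds distorted DNA, had −0.05 ± 0.10 and −0.04 ± 0.11 on its 2 probes, its partner Rad23b 0.09 ± 0.11, and Ddb2, a sensor for distorted DNA that joins Ddb1, 0.04 ± 0.17 (SD, n = 5). Of the TFIIH helicases, Ercc2 had 0.07 ± 0.14 and Ercc3 −0.05 ± 0.09. The nuclease Ercc4, which cuts on the 5′ side, had −0.0087 ± 0.13. Its partner Ercc1 had 0.18 ± 0.29 on one probe and −0.10 ± 0.11 on the other. In replicate 4 these Ercc1 probes read 0.55 and −0.26, and in replicate 1 −0.08 and −0.07; the difference between them was not tested. In base excision repair, the abasic site nuclease Apex1 had 0.06 ± 0.19, the glycosylase Neil3 −0.11 ± 0.12, the scaffold Xrcc1 0.11 ± 0.26 and its ligase Lig3 −0.02 ± 0.12 (SD, n = 5), and none of them passed.

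The Fanconi pathway acts on the interstrand crosslinks that this drug makes. The crosslink class holds only the 4 genes with a Fanc symbol, not every measured gene of that pathway. Fancd2, the clamp that is ubiquitinated at a crosslink, had −0.25, −0.17, −0.15, −0.07 and −0.11, below 0 in every replicate. On the log2 scale it fell by 0.15 (−0.15 ± 0.07, SD, n = 5, array design 2, limma adjusted p = 0.0383). The call ended without replicate 1, 2, 3 or 4 (log2 ratios of −0.17 to −0.13, limma adjusted p = 0.118, 0.0883, 0.106 and 0.0643) and with the trend removed (−0.10). The ubiquitin ligase Fancl had −0.01 ± 0.12, the core subunit Fancg −0.03 ± 0.07 and the translocase Fancm, on array design 1, 0.10 ± 0.23 (SD, n = 5), and they did not pass.

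For break repair and its checkpoint kinases, array design 2 had 4 of 8 probes higher (19.7% of all probes) and array design 1 had 1 of 13 (10.2% of all probes), with none lower on either. Their median log2 ratios were 0.12 and 0.05. None of the 5 passed once the trend was removed, where the medians were 0.03 and 0.03.

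Chek1, the kinase that stalls the cell cycle downstream of Atr, rose on 2 of its 3 probes. On array design 2 it had 0.58, 0.29, 0.05, 0.18 and 0.07, with replicate 1 well above the others (0.24 ± 0.22, SD, n = 5, limma adjusted p = 0.0112). Without replicate 1 it had 0.15 and was not called (limma adjusted p = 0.103), and its dye orientations disagreed in sign, at 0.96 and −0.49. On array design 1 its first probe had 0.13, 0.06, 0.22, 0.30 and 0.26, all above 0 (0.19 ± 0.09, SD, n = 5, limma adjusted p = 0.0404). That call ended whichever replicate was left out (log2 ratios of 0.17 to 0.23, limma adjusted p = 0.0544 to 0.12). The other probe of that design had 0.05 ± 0.11 (limma adjusted p = 0.6). With the trend removed the 3 probes had 0.07, 0.07 and 0.07.

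Rad50, the ATPase that tethers broken ends in the Mre11 complex, rose on 1 of its 3 probes. That probe, on array design 2, had 0.38, 0.14, 0.02, 0.31 and 0.22 (0.21 ± 0.14, SD, n = 5, limma adjusted p = 0.00966). All 5 replicates were above 0, and the second probe of that design was also above 0 in each, at 0.08 ± 0.08 (limma adjusted p = 0.24). Without replicate 1 the first probe had 0.17 and was not called (limma adjusted p = 0.0741), and with the trend removed it had 0.17 as well (0.17 ± 0.13, limma adjusted p = 0.0789). On array design 1 Rad50 had 0.05 ± 0.15 and the nuclease of the same complex, Mre11a, 0.03 ± 0.08 (SD, n = 5), and neither passed.

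Xrcc6, the Ku70 subunit that caps broken ends for end joining, had 0.26, 0.34, 0.16, 0.13 and 0.06 on array design 2, all above 0. It rose 1.14-fold (0.19 ± 0.11, SD, n = 5, limma adjusted p = 0.0138). Significance was lost without replicate 1 or 2 (0.17 and 0.15, limma adjusted p = 0.0673 and 0.0741), and with the trend removed the value was 0.11. Its Ku80 partner Xrcc5 was on array design 1 with 0.24, −0.21, −0.06, 0.29 and 0.09 without passing (0.07 ± 0.21, limma adjusted p = 0.512). The end-joining ligase Lig4 was below 0 in all 5 replicates at −0.12 ± 0.06 (limma adjusted p = 0.148), and the kinase subunit Prkdc had 0.02 ± 0.17 (limma adjusted p = 0.837).

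Rad21, the cohesin subunit that holds sister chromatids together for recombination, had 0.30, 0.14, 0.21, 0.11 and 0.0046 on array design 2. It rose 1.11-fold (0.15 ± 0.11, SD, n = 5, limma adjusted p = 0.045). The call ended without replicate 1, 2, 3 or 4 (log2 ratios of 0.11 to 0.16, limma adjusted p = 0.168, 0.0851, 0.143 and 0.0864). The dye orientations disagreed in sign, at 0.63 and −0.33, and with the trend removed the value turned to −0.03.

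Chek2, the kinase downstream of Atm, had the narrowest spread of the repair probes on array design 1, with −0.15, −0.16, −0.17, −0.12 and −0.20. All 5 replicates were below 0, yet it did not pass (−0.16 ± 0.03, SD, n = 5, limma adjusted p = 0.0596), and with the trend removed it had −0.05. On array design 2 Chek2 had −0.03 ± 0.14. Atm itself had 0.03 ± 0.13. Among recombination factors, Brca2, a mediator of recombination, was above 0 in all 5 replicates at 0.16 ± 0.13 (limma adjusted p = 0.0854). Rad52 had 0.14 ± 0.26, the recombination factor Xrcc3 −0.0057 ± 0.14 and the translocase Rad54b −0.14 ± 0.12 (limma adjusted p = 0.0581). Rad1, of the checkpoint clamp, had 0.10 ± 0.17, and Rad18, the ligase of damage tolerance, −0.03 ± 0.08 (SD, n = 5). None of these passed.

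**Figure D2:**
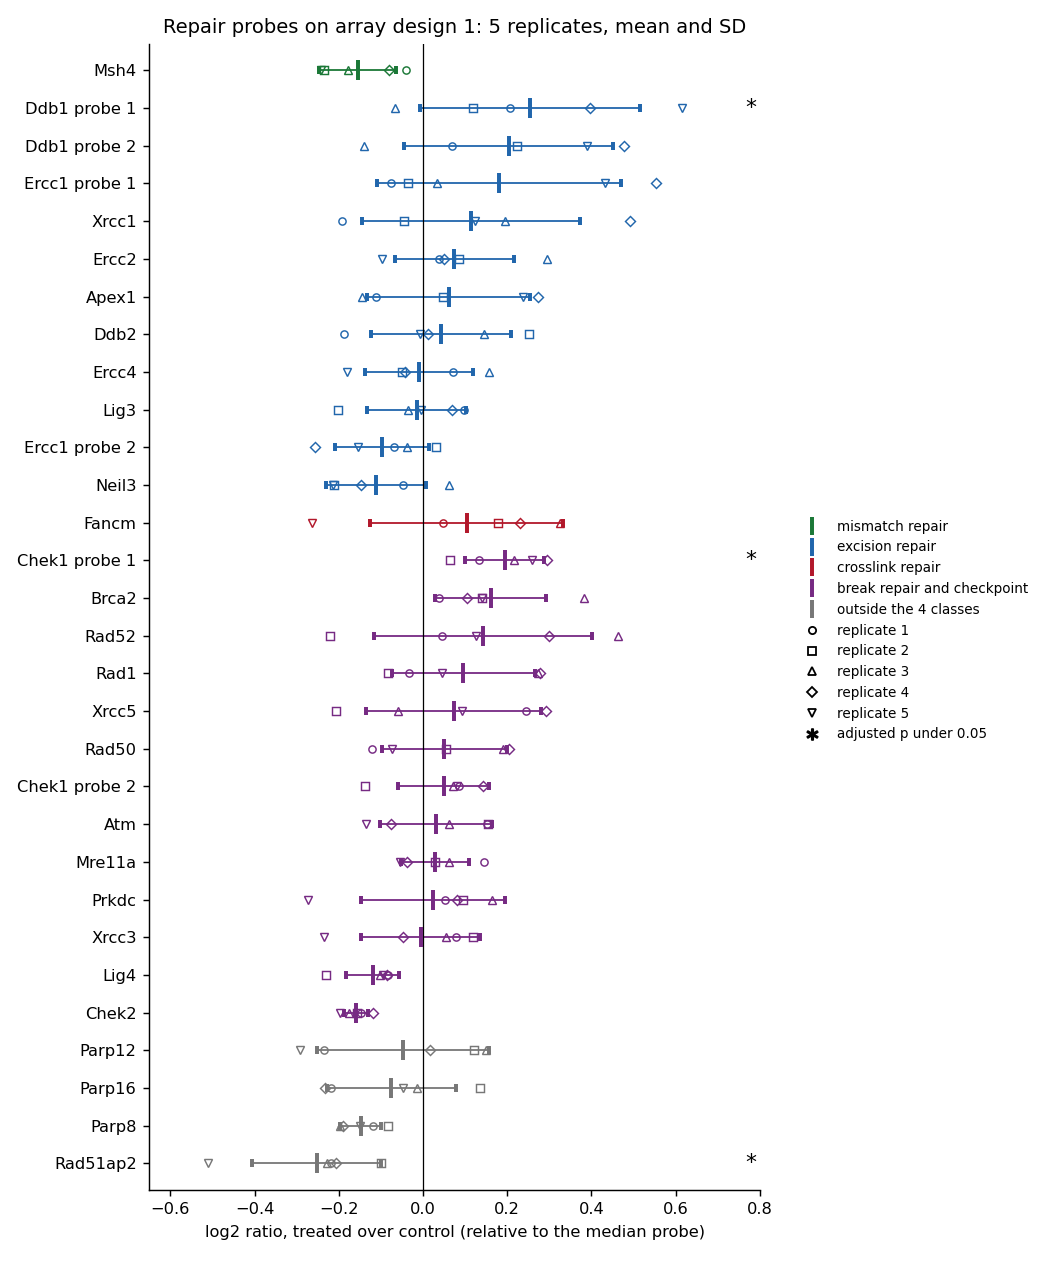
Log2 ratio (treated over control, horizontal axis) of the 30 repair probes of array design 1 by repair class, with open symbols for the 5 replicates, a tick for the mean and a bar for the SD. The means lie between −0.25 and 0.25, and the asterisks mark the 3 probes with adjusted p under 0.05, which are Chek1, Ddb1 and Rad51ap2.

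Some genes that match the symbols belong to no repair class. Rad51ap2 had −0.22, −0.10, −0.23, −0.21 and −0.51 on array design 1, below 0 in all 5 replicates. It fell by 0.25 on the log2 scale (−0.25 ± 0.15, SD, n = 5, limma adjusted p = 0.0229). The test was not passed without replicate 1, 4 or 5 (log2 ratios of −0.26, −0.26 and −0.19, limma adjusted p = 0.0599, 0.0665 and 0.0902), its dye orientations had −0.57 and 0.07, and with the trend removed it had −0.03. Parp8 was below 0 in every replicate without passing (−0.15 ± 0.05, limma adjusted p = 0.0773). Parp12 had −0.05 ± 0.20 on array design 1 and −0.13 ± 0.16 on array design 2, Parp16 −0.08 ± 0.15 and Rad54l2 −0.0060 ± 0.12 (SD, n = 5).

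The intervals of the 42 repair probes without a call show, for each probe alone, what the main analysis could have missed. On array design 1 the 95% intervals of the 27 probes reached from −0.28 (Msh4) to 0.37 (the second Ddb1 probe). Those of the 15 probes on array design 2 reached from −0.26 (Rad54b) to 0.21 (Rad23b). A probe without a call can therefore still have changed within its own interval. The intervals are not adjusted for the number of probes and hold for the main analysis only. Without centring, Chek2 on array design 1 had −0.47 and Rad54b −0.57, outside these limits. Among the 25 repair probes of array design 2, 8 were above 0 in all 5 replicates (20.0% of all probes) and 3 below 0 in all (13.9%). For array design 1 the counts were 2 of 30 (13%) and 5 of 30 (16.4%).

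Probes of the same gene can be compared without regard to a call, although probes of 1 design share the same RNA and slides. Of the 8 genes with more than 1 probe, Chek1, Chek2, Ddb1, Parp12, Pms2, Rad50 and Xpc had means of 1 sign on all their probes, and Ercc1 had opposite signs. With the trend removed, signs also differed for Pms2 (0.0083 and −0.08), Xpc (−0.0068 and 0.04) and Rad50. Rad50 then had −0.04 on array design 1 and 0.17 and 0.10 on array design 2. The share with 1 sign among all genes with several probes was not computed. Only Chek1 had more than 1 probe with a call, and no gene had calls in opposite directions. The arrays carry cloned cDNA, which can hybridise with related transcripts.

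**Figure D3:**
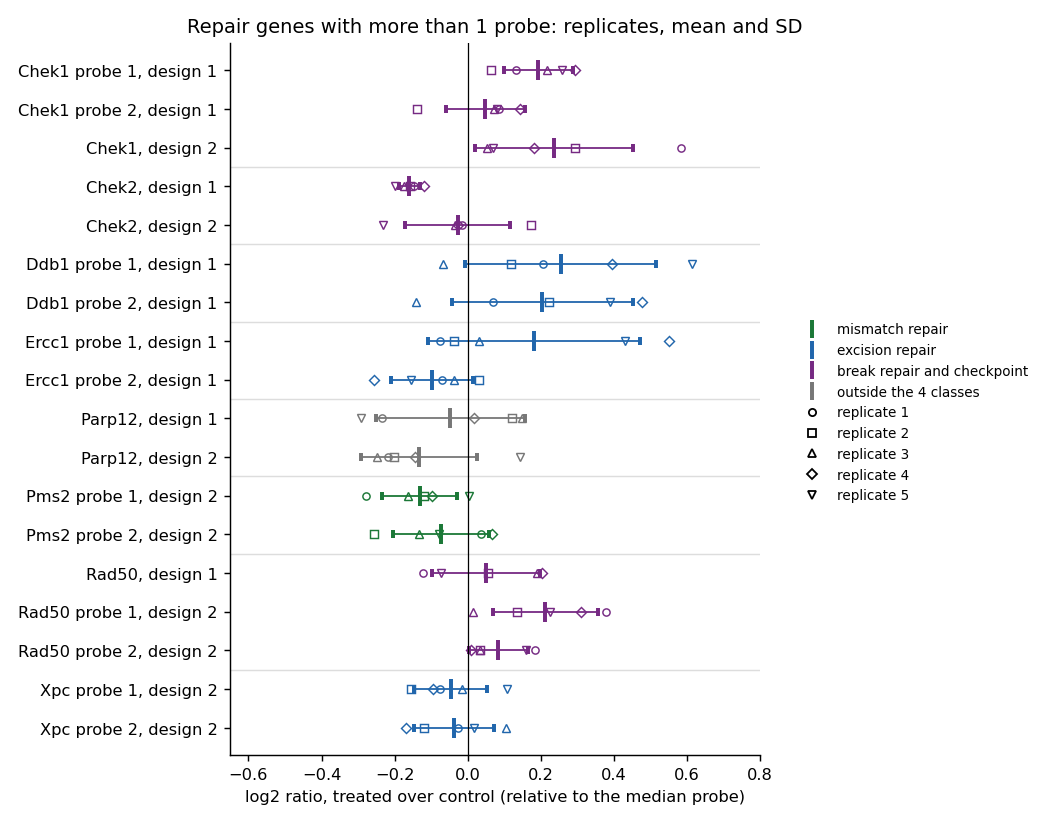
Log2 ratio (treated over control, horizontal axis) of each probe of the 8 repair genes measured more than once, with open symbols for the 5 replicates, a tick for the mean and a bar for the SD. Replicate 3 is lowest on both Ddb1 probes, while the Ercc1 probes lie on opposite sides of 0 at 0.18 and −0.10.

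The dye orientations often differed in sign. The means of the 2 orientations had the same sign in 8 of 30 repair probes on array design 1 and 10 of 25 on array design 2, against 27.3% and 34.1% of all probes. Among the called repair probes they had the same sign in 2 of 3 and 7 of 10. A call rests on the mean of both orientations, which itself favours probes whose orientations agree. The share among all called probes was not computed, so these counts lend the calls no support. The called probes with opposite signs were Rad51ap2, Chek1 on array design 2, Rad21 and Parp1. Among these, Chek1 had the widest gap between orientations. Averaging both orientations cancels a dye effect that is equal on both slides of a replicate.

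**Figure D4:**
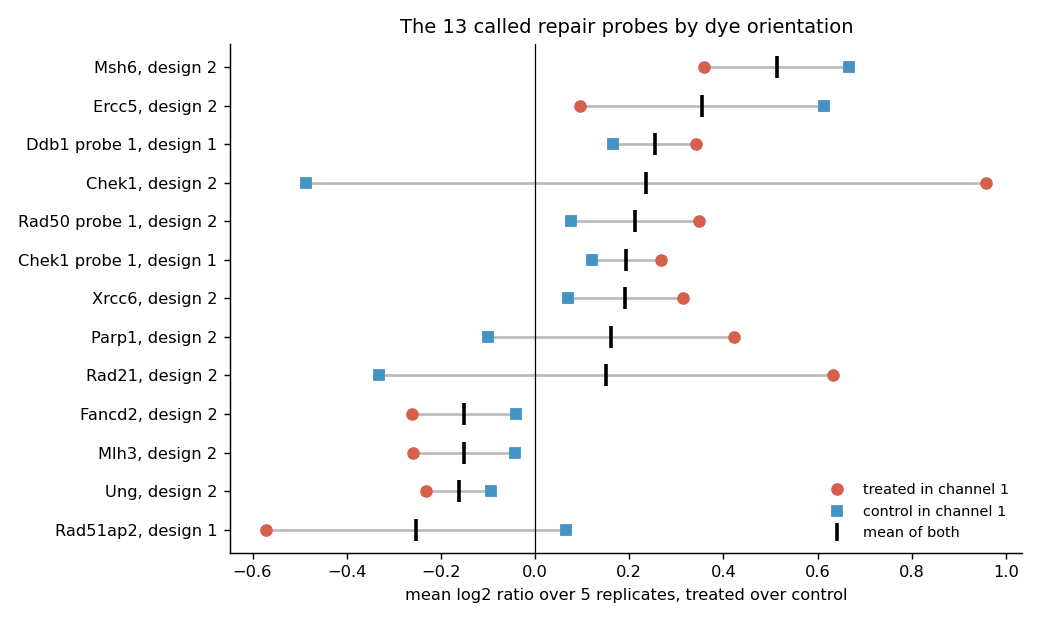
Mean log2 ratio over 5 replicates (treated over control, horizontal axis) of the 13 called repair probes on slides with treated embryos in channel 1 (circles) and with control embryos in channel 1 (squares), with a tick at their mean. Msh6 is above 0 in both orientations at 0.36 and 0.67, while Chek1 on array design 2 runs from −0.49 to 0.96.

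**Figure D5:**
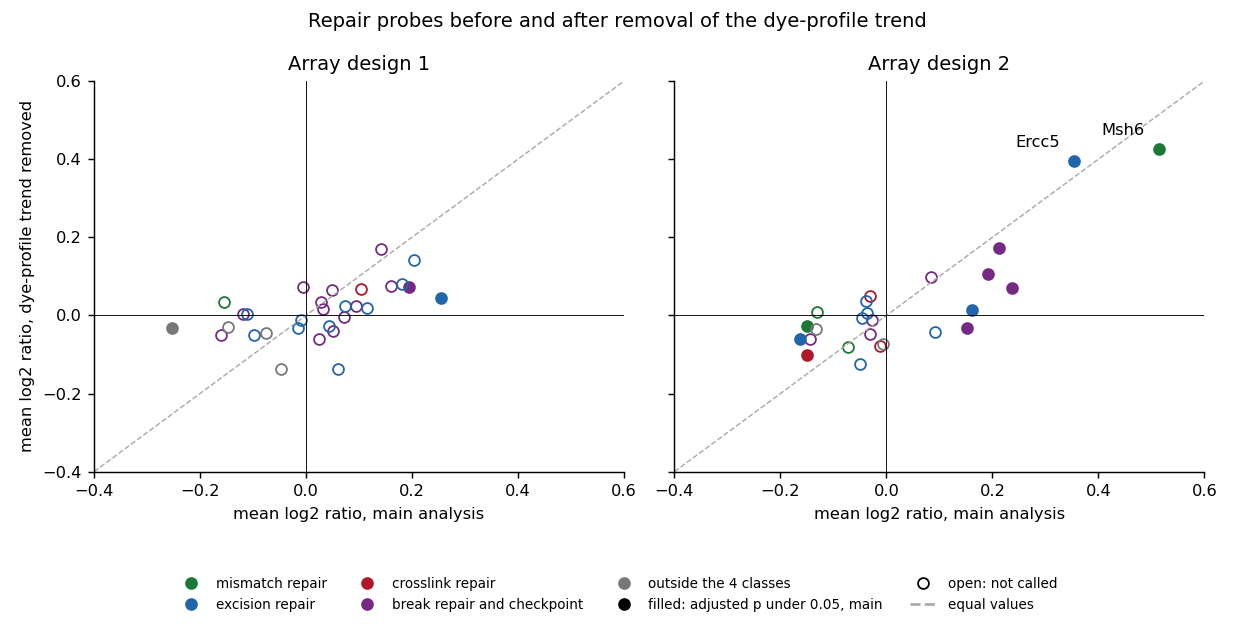
Mean log2 ratio of each repair probe in the main analysis (horizontal axis) and with the dye-profile trend removed (vertical axis), filled where called in the main analysis, with a dashed line of equal values. Msh6 and Ercc5 stay near the line at 0.43 and 0.39, and the other repair probes have values between −0.14 and 0.17 once the trend is removed.

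Other genes of these pathways, which the symbol rule does not take in, include the replication clamp, its loader, polymerases, structure-specific nucleases and chromatin factors. On array design 1, 8 of their 44 probes rose (10.2% of all probes) and 1 fell (5.77%), with a median of 0.08. For array design 2 the counts were 9 of 39 higher (19.7% of all probes) and 2 lower (8.19%), with a median of 0.07. Those of crosslink repair had medians of 0.16 over 8 probes on array design 1 and −0.04 over 8 on array design 2. The genes that fill the gap in mismatch repair had medians of 0.14 over 12 probes and 0.23 over 5, which were 0.04 and 0.10 with the trend removed. Among them Pcna, the clamp that tethers the polymerase, had 0.56, 0.57, 0.32, 0.81 and 1.08 on array design 1 and rose (0.67 ± 0.29, SD, n = 5, limma adjusted p = 0.000855). Rfc1, of the clamp loader, had 0.49, 0.55, 0.41, 0.43 and 0.66 with its first probe on array design 2 and rose (0.51 ± 0.10, limma adjusted p = 6.4e-07), and 0.17 ± 0.23 on the other (limma adjusted p = 0.0624). Tipin, which protects stalled forks, had 0.45, 0.18, 0.15, 0.35 and 0.50 there and rose (0.33 ± 0.16, limma adjusted p = 0.000273). With the trend removed these 3 kept their calls (0.36, 0.19 and 0.29, limma adjusted p = 0.0018, 0.0232 and 0.0252), and Hmgb2, a chromatin protein, fell (−0.28, limma adjusted p = 0.00445) after −0.02 before. Every other rise called in the main analysis lost the call. Among them were the single-strand binding subunit Rpa2 (0.30), the flap nuclease Fen1 (0.27) and the translesion polymerase Rev1 (0.31). The Rpa2 probe of array design 1 had 0.13 without passing (limma adjusted p = 0.168). The falls called were those of Smug1 (−0.24), Brip1 (−0.15) and a Nipbl probe (−0.23), and they too lost the call.

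Of the cell type markers, 7 of 9 erythroid probes rose on array design 2 (19.7% of all probes) and none fell, with log2 ratios from −0.0024 to 0.63 and a median of 0.58. These 7 were probes of 3 globin genes, 4 for Hbb-y, 2 for Hbb-b1 and 1 for Hba-x, while Alas2 (−0.0024) and Slc4a1 (0.11) did not pass. With the trend removed 5 of the 9 passed, with a median of 0.29. The single erythroid probe of array design 1 had −0.10. None of the 6 yolk sac endoderm probes passed (−0.20 to −0.07), and 1 of 2 neural probes rose on array design 1 (10.2% of all probes). Of the placental and decidual probes, 1 of 1 fell on array design 1 (5.77% of all probes) and 1 of 2 on array design 2 (8.19%). On array design 2 both were Dcn probes, at −0.18 and 0.03. With the trend removed no neural, placental or decidual probe passed. The part of the cell type markers in the repair values was not tested. No repair probe differed between slide series 2000 and 3000 by limma with a term for the series, with an unadjusted p under 0.05 for 3 of 30 and 0 of 25, and over all probes 0.013% and 0.0% passed. The series held 2 and 3 replicates on array design 1 and 3 and 2 on array design 2, so the test could miss a difference. On array design 2, Chek1, Rad21, Xrcc6, Fancd2, Parp1 and Ung were called in series 2000 alone but not in series 3000 alone. The first Rad50 probe was called in series 3000 alone but not in series 2000 alone.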

How the data were processed

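The deposited tables hold log2 ratios of the 2 channels of each array, as inferred from the values. The sources used here name no scanner, background correction, normalization, logarithm base or numerator. Probes were named through the platform annotation, with 4749 and 4935 of 7680 spots on array designs 1 and 2 carrying 1 symbol, and symbols were checked against the GRCm38.p6 gene table. The repair genes and all gene lists were chosen with earlier results of these data known.

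Spots of 1 accession were averaged, and a readout with over 5% missing values was left out. Each array was centred on its median, control-over-treated arrays were turned, and readouts and then orientations were averaged to 1 value per replicate. Within each design, limma 3.58.1 (R 4.3.3, lmFit and eBayes) gave two-sided tests against 0 for probes measured in 3 or more replicates. To remove the dye-profile trend, mgcv 1.9.3 fitted each replicate's ratios as a smooth surface over 3 principal components of the dye effects, and the residuals were tested. The number of arrays limits the precision. The main fit was tested on simulated data that held no dye-profile trend, so the simulation covers neither that trend nor its removal. Named with values are all called repair probes, the probe with the smallest p in each class without a call, and genes with several probes or on both designs. The alternatives tried are given in the closing section.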

Additional observations from a re-analysis of the deposited data

Results flagged for a closer look

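In 5 of 55 repair probes 1 replicate lay apart from the other 4, by a gap of over 0.71 of the whole range (Dixon's criterion), which chance gives in about 1 of 20 groups. The lowest values were those of replicate 2 on array design 1 for the second Chek1 probe (−0.14) and Lig4 (−0.23), of replicate 5 on array design 1 for Prkdc (−0.27) and of replicate 4 on array design 2 for Mlh3 (−0.30). For Parp12 on array design 2, replicate 5 was highest, at 0.14.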

How the results depend on the processing

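Of 253 recomputed values of the 13 called repair probes, 123 kept direction and call, 117 lost the call and 13 changed sign. The 123 include settings that could hardly differ from the main analysis. Every repair probe had values in all 5 replicates, so requiring them repeated the main result. Testing every spot on its own, or with a robust prior in limma, left the log2 ratios equal or nearly so. The 123 therefore do not measure how firm the calls are. Without centring, the sign changed for Chek1 (−0.12 on array design 1, −0.19 on array design 2), Ddb1 (−0.059), Rad21 (−0.28), Rad50 (−0.22), Xrcc6 (−0.24), Ercc5 (−0.074) and Parp1 (−0.27). With control embryos in channel 1 only it changed for Rad51ap2 (0.065), Chek1 (−0.49), Rad21 (−0.33) and Parp1 (−0.10), and with the trend removed for Rad21 (−0.031). The cause was not tested.

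The share of all probes called is given above without centring, with scaled arrays, with the trend removed and with the incomplete readout kept. It was not tabulated for the other settings, so their counts cannot be set against it. On array design 1, 3 repair probes were called. The count was 25 without centring, 7 and 5 with treated or control embryos in channel 1 only, 1 with plain readouts only, 1 with single arrays and a replicate block, and 0 with B readouts only, scaled arrays, a slide series term, either slide series alone, the trend removed, or the incomplete readout kept with or without the trend. Leaving out 1 replicate gave 0 to 3. On array design 2, with 10 called, the count was 22 without centring, 2 with the trend removed and 3 with plain readouts only. It was 4 and 1 with treated or control embryos in channel 1 only, and 4 with scaled arrays. In slide series 2000 alone 10 were called, not all the same probes, and in series 3000 alone 3. Leaving out 1 replicate gave 2 to 12, with 2, 4 and 5 without replicate 1, 2 and 3. The replicate block gave 11 there. It ended the calls of Ddb1, Rad51ap2 and Mlh3 and no other call of a repair probe. That fit took both readouts of a slide as separate values. Its estimated correlation within replicates was −0.115 on array design 1 and −0.158 on array design 2. Its p-values can therefore be too small, and the calls it kept gain no support from it.

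For the other pathway genes on array design 1, 9 probes were called. The count was 28 without centring, 1 with the incomplete readout kept, with the trend removed or with both, 3 with plain and 0 with B readouts only, 15 with treated embryos in channel 1 only, 4 with scaled arrays, with a series term or with the replicate block, and 1 in either series alone. Leaving out 1 replicate gave 1 to 8. Of these genes on array design 2, 11 probes were called. The count was 34 without centring, 3 with the trend removed and 4 with plain readouts only. It was 7 and 1 with treated or control embryos in channel 1 only, and 11 and 5 in series 2000 or 3000 alone. Leaving out 1 replicate gave 6 to 12. These counts too cannot be set against the share of all probes, except in the settings where it is given above.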
